A study of Mus musculus with 4 samples.

Results

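The genes described here are the Sprouty and Spred inhibitors of ERK signalling, the ETS transcription factors of the PEA3 type, and Phlda1, in mouse embryonic stem (ES) cells with and without SOCS3. The 9 genes were chosen by name: Spry1, Spry2, Spry4, Spred1, Spred2, Etv1, Etv4, Etv5 and Phlda1. A probe set, the group of short probes on the array that reads a transcript, was taken for a gene only where the platform annotation gave it that symbol alone. This found 8 of the 9 genes, of 18193 genes in all, with 26 probe sets. The 3 probe sets that list Etv1 carry a further symbol as well, so Etv1 was not analysed here. The study measured total RNA of ES cells on 4 expression arrays, 2 labelled wildtype and 2 labelled SOCS3 null, which lack the inhibitor of cytokine signalling SOCS3. The labels do not say how SOCS3 was removed, whether the null cells are 1 clone, or how the cells were grown, and they leave unsaid whether arrays of the same genotype hold separate cultures. The p-values therefore reflect only how far these arrays lie apart, and that spread may be technical.

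ERK is the last kinase of a cascade that runs from growth factor and cytokine receptors through the adaptors GRB2 and SHP2, the GTPase Ras, and the kinases Raf and MEK. Active ERK switches on genes whose products dampen the cascade again. Sprouty proteins act below receptor tyrosine kinases, and Spred proteins hold the Ras regulator neurofibromin at the membrane and so limit the activation of Raf. The PEA3-type ETS factors are transcription factors whose genes are common readouts of FGF and ERK signalling. Phlda1 encodes a protein with a pleckstrin homology-like domain and is induced by growth factors through ERK in many cells. In ES cells, FGF4 acting through ERK is known to favour leaving self-renewal and the choice of primitive endoderm. LIF signals through the receptor subunit gp130, where SOCS3 and SHP2 bind the same site.

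The members did not move as a group. In SOCS3 null cells Phlda1 was 11.7-fold brighter than in wildtype cells. Etv4 was 1.66-fold brighter on its bright probe set, while its dim one did not pass. Etv5 was 2.60-fold dimmer on its brightest probe set. Spred1 was 1.44-fold dimmer on its brightest probe set and 1 of 5 Spred2 probe sets fell. None of the 7 Sprouty probe sets passed the test. Of all probe sets tested 15.9% passed, so 0 of 7 and 1 of 5 say little. These folds are ratios of mean intensities with n = 2 arrays per group. Fewer cells that express a gene and less of its RNA per cell cannot be told apart in such bulk samples.

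Changes were tested with limma on log2(intensity + 16), as SOCS3 null minus wildtype, and a probe set counted as called where its Benjamini-Hochberg adjusted p, over all 27022 probe sets tested, was under 0.05. Of the 26 member probe sets 24 reached the filter on mean intensity and 2, both of Spred1, lay below it. Of the 24, 2 were called higher and 5 lower, where 15.9% of all probe sets tested were called, 8.55% higher and 7.30% lower. With 1 probe set per gene, the one brightest over all 4 arrays, 4 of the 8 genes were called: Phlda1 and Etv4 higher, Etv5 and Spred1 lower. Of all 12732 genes tested 22.7% were called, 13.1% higher and 9.55% lower. The median of the 8 gene changes was -0.15 and the median of their sizes without sign 0.52, against -0.00 and 0.27 over all genes. In 12 of the 24 probe sets the SOCS3 null and wildtype arrays did not overlap, 3 higher and 9 lower, where 62.0% of all probe sets tested did not overlap, 27.2% higher and 34.8% lower. With any 1 array left out, an arm holds 1 array that is assumed to vary like the other group, and limma called 0 of all genes, members included. In these fits 4 or 5 of the 8 members had an unadjusted p under 0.05, where 23.0% to 37.2% of all genes did.

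The labels were checked first on the targeted gene. For the brightest Socs3 probe set the wildtype arrays gave 3024 and 1884 and the null arrays 19.3 and 12.9, beside array medians that began at 15.7. Log2 values correlated at 0.995 within wildtype, at 0.988 within SOCS3 null and at 0.948 to 0.957 across genotypes, a description over probe sets, which are not independent replicates. Stem cell markers were bright on all arrays, with a summed intensity of 77859 and 77948 in wildtype cells and 65959 and 61393 in null cells for 8 genes. In the fit of 1 probe set per gene 2, Sox2 and Fgf4, were called lower, where 9.55% of all genes were. The other 6 missed the threshold. Over all probe sets 0 of the 11 tested probe sets of these markers passed. At an unadjusted p of limma under 0.05, 4 of the 8 were lower: Sox2, Fgf4, Nanog and Zfp42, where 38.5% of all genes reached it. Zfp42 read 7657 and 7324 in wildtype cells and 3502 and 1509 in null cells. Markers of primitive endoderm moved with the genotype: 10 of 10 were called higher over genes, where 13.1% of all genes were. Their summed intensity was 740 and 774 in wildtype against 32852 and 33630 in SOCS3 null. Gata4, Sox17 and Foxa2 had wildtype log2 means of 4.71, 4.34 and 4.51, under the filter floor of 4.72. They were tested only because the null arrays read high. The list was also chosen with earlier results of these data known, so the count is a description and no test. Of 6 fibroblast and feeder markers tested 0 passed limma's test, also at an unadjusted p under 0.05, and the list's 7 genes summed to 1273 and 2123 in wildtype cells and 2510 and 1530 in null cells. The 6 trophoblast markers summed to 76.5 and 81.4 in wildtype cells and to 135 and 351 in null cells, and Krt7 alone read 234 on SOCS3 null replicate 2. Of the 4 that were tested 0 passed limma's test and 2, Hand1 and Gata3, were higher at an unadjusted p under 0.05. The 5 mesoderm markers summed to 38.8 to 41.7 over all arrays. No marker was listed at 0. The part of the endoderm and trophoblast markers in the changes below was not tested.

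**Figure D1:**
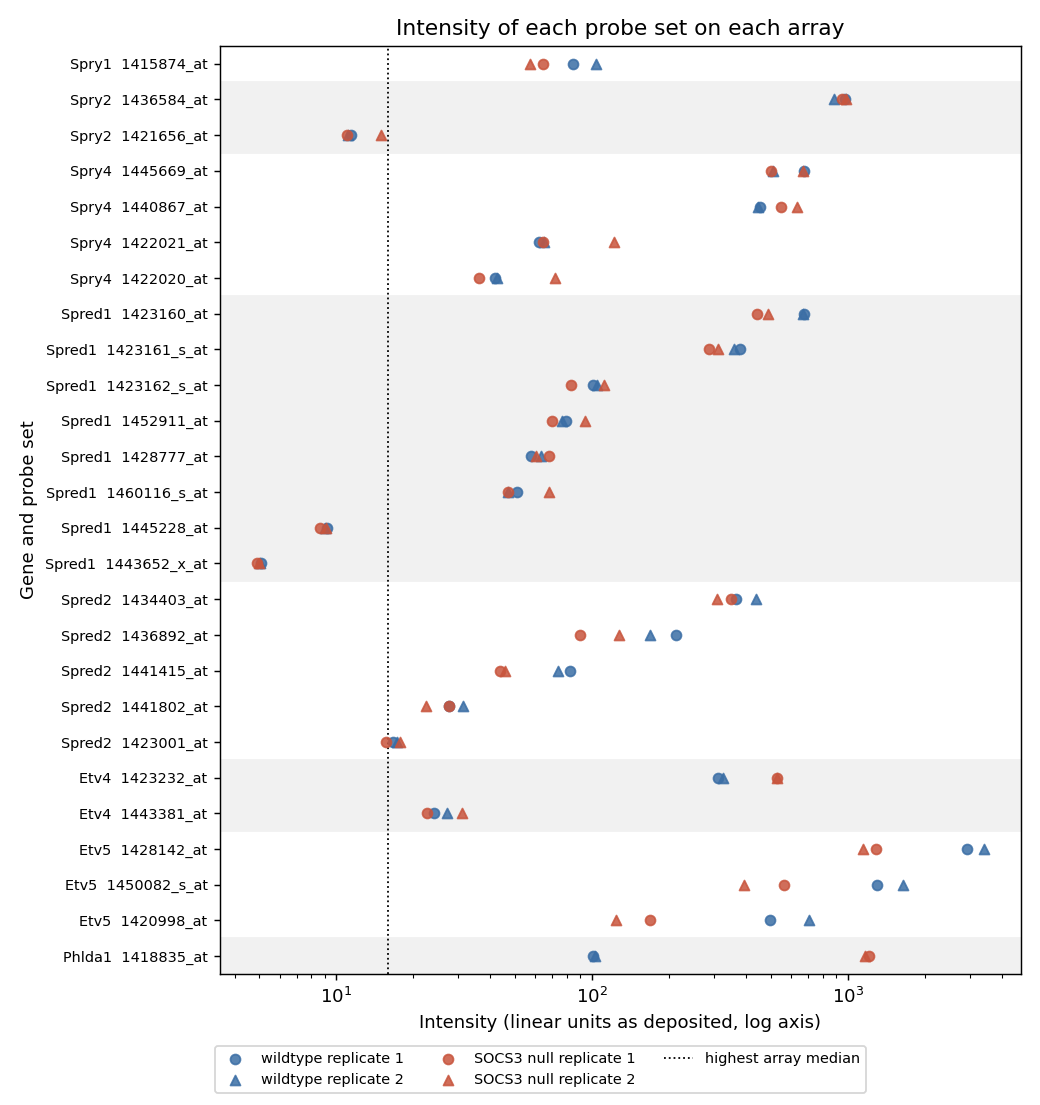
Deposited intensity (log axis) of the 26 probe sets of the 8 genes on each of the 4 arrays, with the highest array median as a dotted line. Phlda1 lies at 101 and 103 on the wildtype arrays and at 1216 and 1163 on the SOCS3 null arrays, all 3 Etv5 probe sets lie lower in SOCS3 null, and most Sprouty and Spred points of both genotypes lie close together.

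Spry2, which inhibits signalling from receptor tyrosine kinases to Ras, did not differ beyond the spread of its arrays. Its brighter probe set (1436584_at) read 976 and 881 in wildtype cells and 952 and 987 in null cells. The groups overlapped, and the change of 0.06 (SE 0.09) had a 95% interval of -0.19 to 0.31 and an adjusted p of 0.674. Its other probe set (1421656_at) lay below the array median on every array, at 11.4, 11.1, 11.0 and 14.9. This dim probe set says little about the gene.

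Spry4 was read by 4 probe sets, which did not give 1 picture. On 1440867_at the wildtype arrays read 452 and 446 and the SOCS3 null arrays 548 and 632. The null arrays were higher without overlap, by 0.38 (SE 0.10, 95% interval 0.09 to 0.66), but the adjusted p was 0.0889. On 1445669_at, of like brightness, the readings were 677 and 510 in wildtype cells and 503 and 668 in null cells. There the ranges of the groups were nearly the same, and the change was -0.02 (SE 0.22, 95% interval -0.64 to 0.60). The dimmer probe sets 1422021_at and 1422020_at, which were designed from the same source sequence, changed by 0.40 (SE 0.29) and 0.22 (SE 0.28) with adjusted p of 0.423 and 0.646. On 1422021_at the SOCS3 null arrays read 64.2 and 122 and on 1422020_at 36.2 and 71.4, so the second null array was the brighter on all 4 Spry4 probe sets. Without SOCS3 null replicate 2 the change of 1422020_at was -0.15.

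Spry1 had 1 probe set (1415874_at), at 84.6 and 104 in wildtype cells and 64.2 and 57.4 in null cells. Both null arrays lay below both wildtype arrays. The change was -0.52 (SE 0.12, 95% interval -0.87 to -0.16), with an adjusted p of 0.0743 that missed the threshold. With the filter raised to the 60th percentile the gene passed in the fit of 1 probe set per gene (adjusted p = 0.0424). Of the 7 Sprouty probe sets 0 passed limma's test, where 15.9% of all probe sets tested did, so 0 among 7 says little. Limma's unadjusted p was under 0.05 for 2, those of Spry1 and of Spry4 on 1440867_at, where 33.6% of all probe sets tested reached it.

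The Spred genes had 13 probe sets, 11 of them tested. The brightest Spred1 probe set (1423160_at) read 672 and 669 in wildtype cells and 440 and 489 in null cells. The groups were well apart, and it fell by 0.52 (SE 0.09, 95% interval -0.76 to -0.27), with an adjusted p of 0.0397. This call did not hold with a pseudocount of 1 (adjusted p = 0.054), without the filter (0.0774) or with a block on replicate number. The next in brightness, 1423161_s_at, was designed from the same source sequence. It read 380 and 358 in wildtype cells and 286 and 312 in null cells, also without overlap, for a change of -0.29 (SE 0.08, adjusted p = 0.108). The suffix _s marks a probe set that can match more than 1 transcript.

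The dimmer Spred1 probe sets did not follow. The 4 that were tested, with wildtype means of 48.8 to 103, overlapped between genotypes, and their changes ran from -0.09 to 0.16 with adjusted p of 0.567 to 0.845. Of these, 1423162_s_at shares its source sequence with both brighter probe sets and read 101 and 105 in wildtype cells and 82.6 and 111 in null cells. The 2 below the filter lay between 4.88 and 9.23 on all arrays, under the array medians. When the tested probe sets of a gene were averaged, the change of Spred1 was -0.10 (adjusted p = 0.506), so its call rests on 1 probe set.

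For Spred2 the probe set that passed was not the brightest. On 1441415_at the wildtype arrays read 82.0 and 73.9 and the SOCS3 null arrays 43.7 and 45.7. It fell by 0.63 (SE 0.08, 95% interval -0.87 to -0.39), with an adjusted p of 0.0264 that was 0.0541 without the filter. The brighter 1436892_at read 213 and 168 in wildtype cells and 89.5 and 128 in null cells, a change of -0.74 (SE 0.21, adjusted p = 0.103). The groups did not overlap there either, but the arrays within each group lay farther apart. The brightest, 1434403_at, read 367 and 438 in wildtype cells and 349 and 308 in null cells, with a change of -0.28 (SE 0.13, adjusted p = 0.242). The changes of the dim probe sets 1441802_at and 1423001_at were -0.15 and -0.01, and their groups overlapped. All 5 Spred2 changes were below 0, and their average passed (-0.36, SE 0.07, adjusted p = 0.0357), whereas the brightest probe set alone did not.

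**Figure D2:**
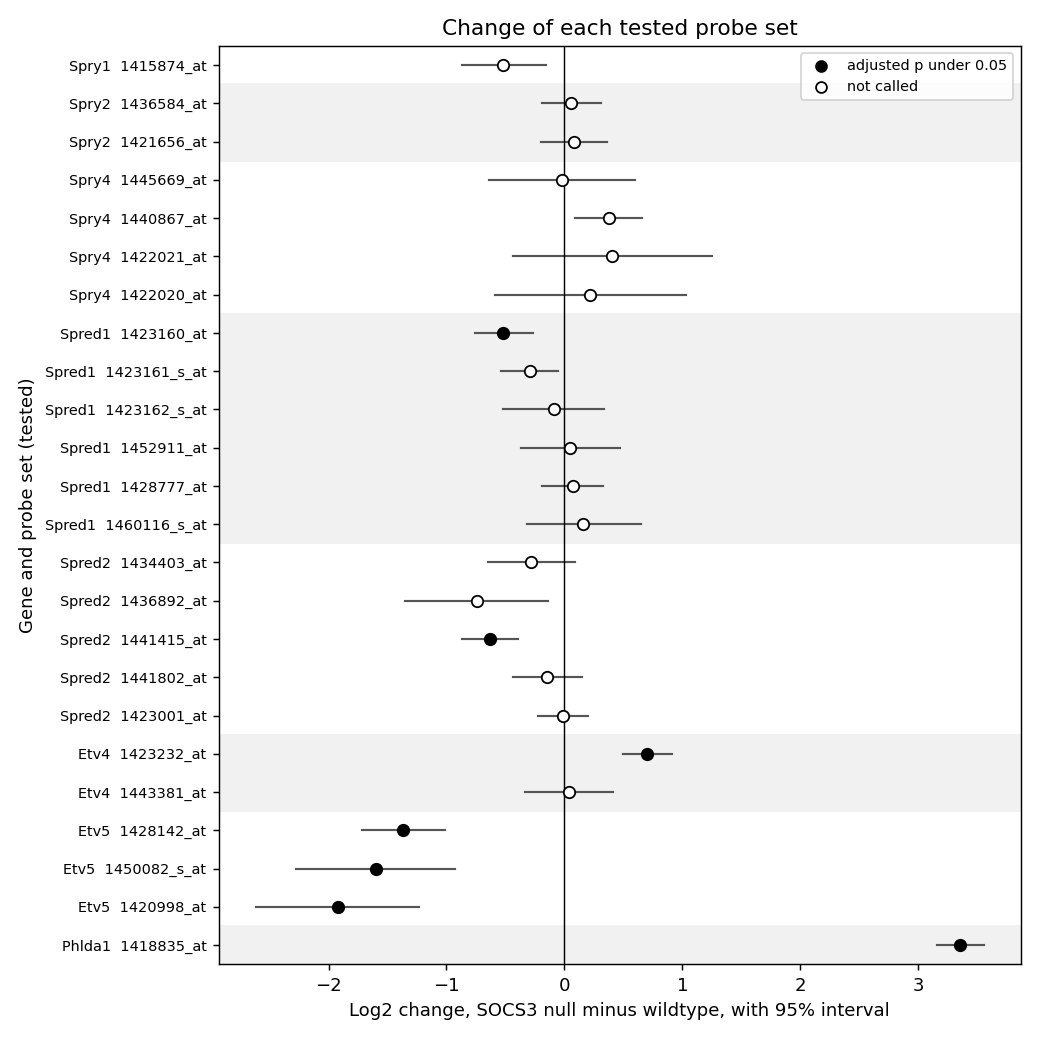
Log2 change (SOCS3 null minus wildtype) of the 24 tested probe sets, with the 95% interval of the limma fit; filled points have an adjusted p under 0.05. The 3 Etv5 intervals lie below 0 and that of Phlda1 lies above 3, while the Spred1 points spread from -0.52 to 0.16 and the 7 Sprouty points are all open.

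The PEA3-type factors Etv4 and Etv5 moved in opposite directions. Etv5 fell on all 3 of its probe sets. On 1428142_at it read 2922 and 3414 in wildtype cells and 1293 and 1144 in null cells, or 3168 ± 348 against 1218 ± 106 (SD, n = 2). Both null arrays were below both wildtype arrays by more than the spread within either group. The change was -1.37 (SE 0.12, 95% interval -1.72 to -1.01), with an adjusted p of 0.0150. On 1450082_s_at the readings were 1296 and 1649 in wildtype cells and 565 and 392 in null cells, a change of -1.60 (SE 0.24, adjusted p = 0.0315). On 1420998_at they were 495 and 708 in wildtype cells and 168 and 124 in null cells, a change of -1.92 (SE 0.24, adjusted p = 0.0250). These last probe sets share a source sequence and so are not independent readings, and the 95% intervals of all 3 overlap. Without the filter the adjusted p was 0.0516, 0.108 and 0.0894 over all probe sets, while Etv5 passed over genes (0.0337). Of all genes tested 94.4% had a smaller change, regardless of sign.

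Etv4 rose on its bright probe set (1423232_at), which read 311 and 325 in wildtype cells and 528 and 528 in null cells, or 318 ± 10.4 against 528 ± 0.140 (SD, n = 2). The arrays of each genotype were close to each other and the genotypes were apart. The change was 0.70 (SE 0.07, 95% interval 0.50 to 0.91), with an adjusted p of 0.0171. The dim probe set 1443381_at read 24.0 and 27.1 in wildtype cells and 22.6 and 30.9 in null cells, with a change of 0.04 (SE 0.13, adjusted p = 0.880). As the average of both probe sets Etv4 changed by 0.37 and did not pass (adjusted p = 0.0563). Of all genes 81.1% had a change of smaller size.

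The bases before the start of the member that fell on every probe set, Etv5, are shown beside those of Spred1, which fell on its brightest probe set, and of Spry2, which did not pass. They come from RefSeq, build GRCm38.p6, whose table held a window for 5 of the 8 genes and 2 starts of Etv5. Each line holds the 250 bases upstream of an annotated start, 5′ to 3′ on the strand of the gene. Capitals mark the core of ETS factor motifs, GGAA or its complement TTCC.
Etv5 outer start, chr16:22439571-22439820, minus strand: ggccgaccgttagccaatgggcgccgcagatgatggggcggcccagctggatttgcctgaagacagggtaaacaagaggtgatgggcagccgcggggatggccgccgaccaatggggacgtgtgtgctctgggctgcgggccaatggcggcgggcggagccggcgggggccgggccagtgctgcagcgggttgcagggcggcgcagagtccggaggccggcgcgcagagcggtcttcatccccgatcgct
Etv5 inner start, chr16:22438369-22438618, minus strand: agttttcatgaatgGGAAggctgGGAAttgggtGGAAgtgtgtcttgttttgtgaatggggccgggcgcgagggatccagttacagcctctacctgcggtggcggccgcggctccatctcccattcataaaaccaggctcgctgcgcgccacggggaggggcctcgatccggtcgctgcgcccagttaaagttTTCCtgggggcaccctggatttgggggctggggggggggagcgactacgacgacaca
Spred1, chr2:117120821-117121070, plus strand: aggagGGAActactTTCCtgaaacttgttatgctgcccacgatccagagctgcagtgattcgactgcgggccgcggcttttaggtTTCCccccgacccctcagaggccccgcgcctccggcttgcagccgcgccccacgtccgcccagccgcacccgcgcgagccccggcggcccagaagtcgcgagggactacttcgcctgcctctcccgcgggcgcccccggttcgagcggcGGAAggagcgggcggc
Spry2, chr14:105896820-105897069, minus strand: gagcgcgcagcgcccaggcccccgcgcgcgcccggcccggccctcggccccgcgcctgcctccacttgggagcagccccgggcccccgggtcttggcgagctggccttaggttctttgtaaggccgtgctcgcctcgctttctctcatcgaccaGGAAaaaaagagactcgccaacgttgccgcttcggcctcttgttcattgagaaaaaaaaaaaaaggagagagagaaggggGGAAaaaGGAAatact

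The windows of Etv5 differed: the outer start had 0 ETS cores and the inner start 4. Spred1 had 4, Spry2 3, Spry1 1 and Spred2 7. Over all 32851 such windows the median was 3, and 93.4% held at least 1, so the presence of a core sets none of these genes apart. The longer ETS motif CCGGAA was in 12.0% of all windows, the STAT motif TTCNNNGAA in 7.02%, the AP-1 motif TGACTCA in 4.46%, the cyclic AMP response motif TGACGTCA in 1.55% and the CArG box of serum response factor in 1.47%. None of these 5 motifs, searched on both strands, was in any of the 6 windows of the members; the longer ETS motif and the ETS core overlap by their letters. A window without a match says only that these letters are not in it. The windows of the members were rich in G and C, with 56.0% to 71.2% against a median of 52.4% over all windows.

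Phlda1 had the largest change of the members. Its single probe set (1418835_at) read 101 and 103 in wildtype cells and 1216 and 1163 in null cells, or 102 ± 1.40 against 1190 ± 37.3 (SD, n = 2). The groups differed by far more than the arrays within them. It rose by 3.36 (SE 0.07, 95% interval 3.16 to 3.56), with an adjusted p of 0.00452, and 99.6% of all genes had a change of smaller size. Over the settings the change ran from 2.92 to 3.54, and the gene passed in all 9 alternatives that kept the 4 arrays.

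**Figure D3:**
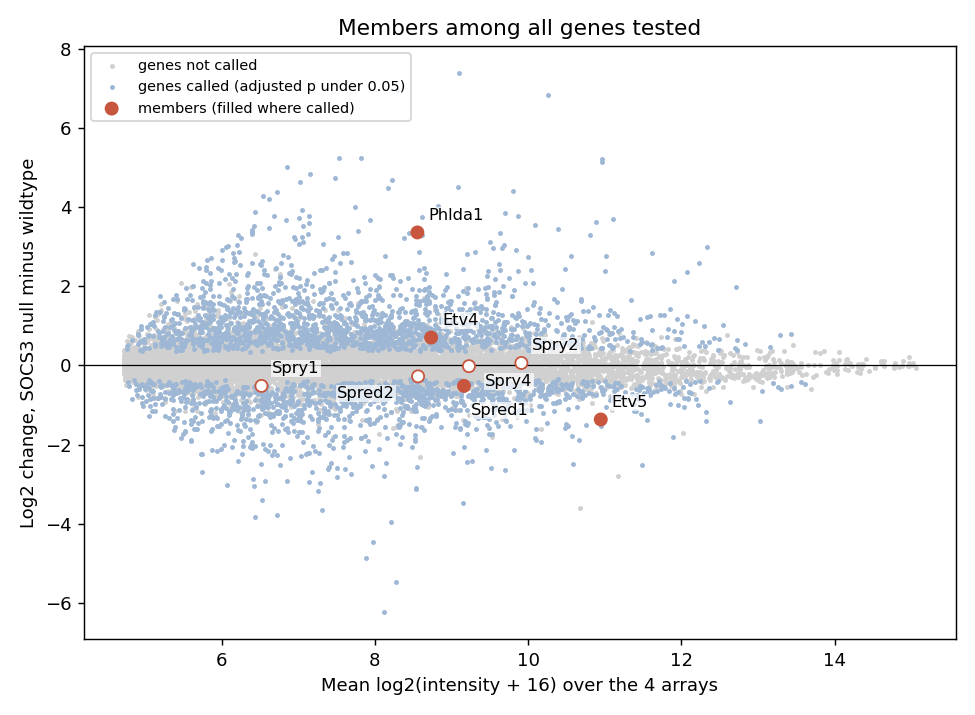
Log2 change (SOCS3 null minus wildtype) of all 12732 genes against their mean log2(intensity + 16) over the 4 arrays, by the brightest probe set of each gene. Phlda1 at 3.36 lies near the upper edge and Etv5 at -1.37 towards the lower edge of genes of like brightness, while Spry2, Spry4 and Spred2 lie in the grey band of genes not called.

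Of 4 other genes of these families 1 rose, 1 fell and 2 did not pass. Spry3 and Spred3 read 10.6 to 18.2 on all arrays, near the array median, and did not pass, with changes of 0.00 and 0.09. Phlda3, a pleckstrin homology-like protein known as a p53 target that restrains AKT, rose by 1.73 (SE 0.14, adjusted p = 0.00887), from 204 and 252 in wildtype to 738 and 845 in SOCS3 null. The imprinted Phlda2 fell by 1.82 (SE 0.18, adjusted p = 0.0107), from 2374 and 1739 to 575 and 552. Both differences exceeded the spread within the genotypes. These and the adjusted p that follow are from limma over the 12732 genes, with the brightest probe set of each gene. Beside the counts of each list below stand the shares over all genes, 13.1% called higher and 9.55% lower.

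The cascade from receptor to ERK had 16 genes tested of 22 listed, and the others were not analysed here. Of the 16, 1 rose, 3 fell and 12 did not pass, with a median change of 0.26. Shc1, an adaptor of receptor tyrosine kinases, rose by 1.02 (adjusted p = 0.0222). Those that fell were Fgf4, the main FGF ligand of ES cells (-1.29, adjusted p = 0.0404), the Ras exchange factor Sos1 (-0.72, adjusted p = 0.0152) and the kinase Braf (-0.67, adjusted p = 0.0320). Fgf4 passed over genes but none of its 3 probe sets passed over all probe sets, with changes of -1.72 to -1.29. There Shc1 passed on 1 of 2 tested, Sos1 on 1 of 4 (-0.72 to -0.09) and Braf on 2 of 8 (-0.73 to -0.06). The 12 genes that did not pass changed by -0.06 to 0.84. Among them the adaptor Grb2 and the MEK genes Map2k1 and Map2k2 changed by 0.23, 0.22 and 0.30. Of the 16 genes 8 had an unadjusted p of limma under 0.05, where 38.5% of all genes did.

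Among 14 genes for other brakes on ERK 5 rose and 1 fell, while 8 did not pass, with a median change of 0.39. The ERK phosphatase genes Dusp4 and Dusp6 rose by 2.29 (SE 0.26, adjusted p = 0.0136) and 1.14 (SE 0.19, adjusted p = 0.0300). Dusp4 read 90.9 and 156 in wildtype cells and 645 and 648 in null cells, and Dusp6 676 and 914 against 1923 and 1603. Neither gene overlapped between genotypes. Erf, an ETS repressor that ERK exports from the nucleus, rose by 1.09 (adjusted p = 0.0232). Rasa2, a Ras GTPase-activating protein, and Pea15a, which holds ERK in the cytoplasm, rose by 0.72 and 0.83. Both were picked with their values in view, and Rasa2 passed in 6 of 10 other settings with all arrays. Il17rd, also known as Sef, a membrane inhibitor of FGF signalling, fell by 0.76 (SE 0.08, adjusted p = 0.0131), from 294 and 317 to 173 and 175.

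Among 15 other ERK-induced genes tested 4 rose and 2 fell, while 9 did not pass, and the median change was 0.05. The urokinase receptor gene Plaur rose by 2.87 (SE 0.16, adjusted p = 0.00542), from 122 and 128 to 1160 and 886. Hbegf, a ligand of the EGF receptor, and the pseudokinase gene Trib1 rose by 1.04 and 0.96. Junb, a subunit of AP-1, rose by 1.55 and Myc fell by 0.79, and both were picked with their values in view. The cyclin gene Ccnd1 fell by 1.81 (SE 0.12, adjusted p = 0.00701), from 543 and 652 to 159 and 157, and was called lower on all 3 of its probe sets. Egr1, an immediate early gene, read 283 and 212 in wildtype cells and 78.5 and 142 in null cells and did not pass (-1.10, adjusted p = 0.0817).

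ETS factors outside the PEA3 type had 13 genes tested of 16. Of these 6 rose and 7 did not pass, with 0 called lower, and with a median change of 0.71. As 9.55% of all genes were called lower, 0 among 13 says little. Ets1 rose by 2.30 (SE 0.19, adjusted p = 0.00871), from 15.4 and 14.5, below the highest array median, to 113 and 164, so the size of its change depends on the pseudocount, with 3.10 at a pseudocount of 1 and 1.35 at 64. Its 4 probe sets disagreed: their changes ran from 0.12 to 2.30, 2 were called, and their average was 1.16. Elf3, an epithelial ETS factor, rose by 1.23 (adjusted p = 0.00945), Elf1 by 0.92 (adjusted p = 0.0148) and Elk3, a ternary complex factor, by 0.78 (adjusted p = 0.0200). Ets2 and Elf2 rose by 1.07 and 0.74 and were likewise picked with their values in view, and Ets2 passed in 6 of 10 other settings with all arrays. Among 8 proteins known to bind or modify Sprouty or Spred proteins, such as Cbl, Tesk1 and Nf1, 0 genes passed limma's test and 1, Ptpn11 with a change of 0.45, had an unadjusted p under 0.05, where 38.5% of all genes did. Some genes stand in more than 1 list. Over the pathway lists together 24 of 66 genes tested were called, 17 higher and 7 lower, or 36.4%, beside the 22.7% of all genes. The lists were chosen with earlier results of these data known, so the difference between these shares is no test of the pathway. Of the 24 called genes 13 had more than 1 probe set tested. Over all probe sets 2 of the 13 (Ccnd1 and Hbegf) passed on each probe set and 3 (Fgf4, Rasa2 and Ets2) on none. The other 8 passed on some only: Shc1, Sos1, Braf, Erf, Pea15a, Ets1, Elk3 and Elf2.

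**Figure D4:**
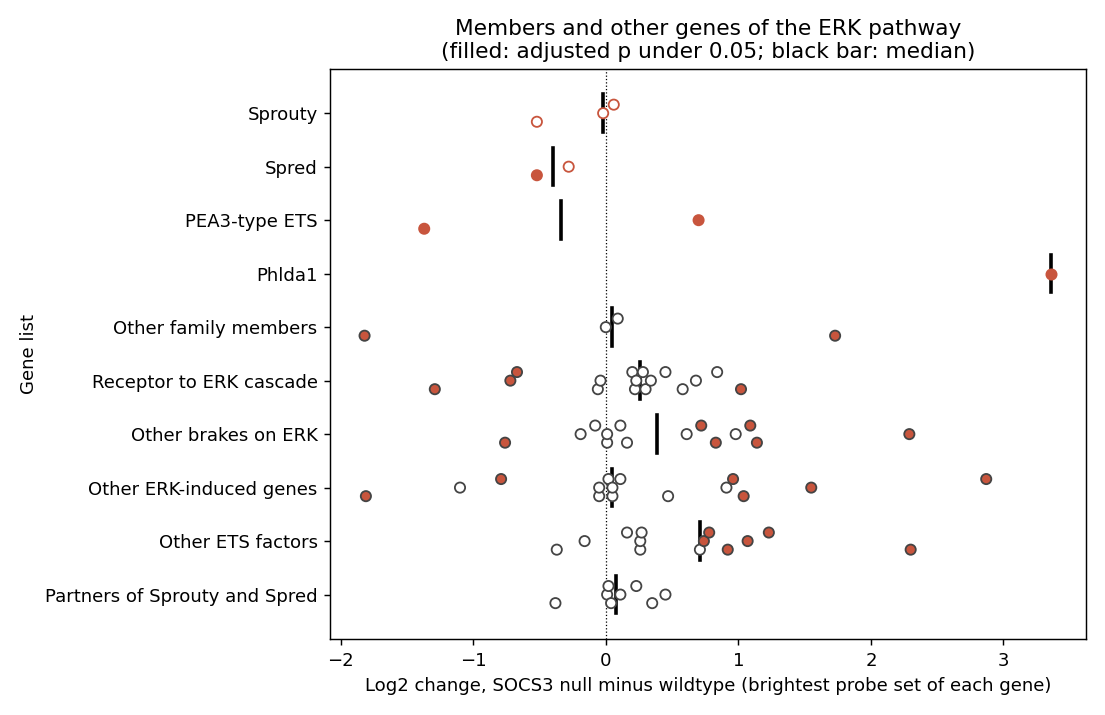
Log2 change (SOCS3 null minus wildtype) of each tested gene by list, members above and other genes of the pathway below, with filled points at an adjusted p under 0.05 and black bars at the list medians. Called genes lie on both sides of 0 in 4 of the 6 pathway lists, the ETS factors outside the PEA3 type have called genes only above 0, and the partners of Sprouty and Spred have none.

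The genes with patterns most like those of Phlda1 and Etv5 were sought over the 4 arrays by the Euclidean distance between log2 values centred on the mean of each gene. Nearest to Phlda1 were Lamc1, a laminin chain (distance 0.102), Amot, which encodes angiomotin (0.129), and the lysosomal protease gene Lgmn (0.251). They changed by 3.46, 3.35 and 3.35. Nearest to Etv5 were the potassium channel gene Kcnk1 (0.065), Atf7ip2 (0.068) and Cdca7 (0.110), with changes of -1.36, -1.39 and -1.39. With 4 arrays in 2 groups this distance mostly ranks genes by the size of their change.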

How the data were processed

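Total RNA of mouse ES cells was measured on 4 arrays with 45101 probe sets each. The authors deposited intensity values on a linear scale; how they summarised and normalized them is not stated in the labels. All values were above 0 and the array medians nearly equal, so no further normalization was applied; values scaled this way cannot show a shift of all RNA. No scanner files or detection calls were used, and the number of arrays limits the precision. The 64 control probe sets were left out. Values were analysed as log2(intensity + 16), which understates changes of dim genes, and 27022 probe sets with a mean at or above the 40th percentile were tested with lmFit and eBayes of limma 3.58.1 in R 4.3.3, two-sided, with genotype as the only term. The fit was repeated on 12732 genes, each by its brightest probe set. Names came from the platform annotation. The procedure was tested on simulated arrays with 200 changed genes and independent noise, where on average 5.72% of calls were false. Far more genes were called here, so this share need not hold for these arrays. The fit was varied in turn by a pseudocount of 1 or 64, by median centring or quantile normalization, by a filter at the 60th percentile or none, by a trended or robust eBayes, by averaging probe sets, by a block on replicate number, and by leaving out each array. Pathway genes were named where called, at most 4 per list by p; Socs3, the members and the 3 nearest genes of the largest rise and fall complete the rule, and Rasa2, Pea15a, Junb, Myc, Ets2, Elf2, Spry3, Spred3, Egr1, Grb2, Map2k1, Map2k2 and Ptpn11 were added after their values were seen. The members and lists were chosen with earlier results of these data known. Figures were drawn with matplotlib 3.10.9.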

Additional observations from a re-analysis of the deposited data

How the results depend on the processing

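Pseudocounts, quantile normalization, median centring, the higher filter and both eBayes trends kept the counts of called members within 1.5 times. Without the filter, which tests more dim probe sets, limma called 2 member probe sets higher and 0 lower (7 lower at an unadjusted p under 0.05). It called 2 member genes higher and 1 lower, and 1631 genes and 1733 probe sets in all. With the probe sets of a gene averaged, 1 member gene was called higher. Same-numbered arrays share only a number: their deviations from the group means correlated at -0.12 over the probe sets tested. With the replicate number as a block 1 member probe set was called higher and 1 lower, 1 member gene lower, and 1914 genes and 1993 probe sets in all, against 2888 and 4283 without it. The member probe sets that lost their call under the block were those of Spred1 (1423160_at, adjusted p = 0.0891), Spred2 (1441415_at, 0.0701), Etv4 (1423232_at, 0.0563) and Etv5 (1450082_s_at, 0.0653, and 1420998_at, 0.0563), by limma, and over genes Spred1 lost it (0.0734). With the numbers crossed, an alternative added after this correlation was seen, 2 member probe sets were called higher and 5 lower, and 2817 genes in all. Leaving out any 1 array gave 0 calls by limma throughout, with the counts ranging from 0 to 0, although an unadjusted p under 0.05 was reached by 2926 to 4731 genes; the directions of the 7 called member probe sets did not turn. Changes that turned had not been called: with an array left out, Spry2 ran from -0.01 to 0.13 (1436584_at) and -0.01 to 0.18 (1421656_at), Spry4 from -0.22 to 0.18 (1445669_at) and -0.15 to 0.59 (1422020_at), Spred1 from -0.27 to 0.09 (1423162_s_at), -0.12 to 0.23 (1452911_at), -0.00 to 0.13 (1428777_at) and -0.04 to 0.37 (1460116_s_at), Spred2 from -0.05 to 0.03 (1423001_at) and Etv4 from -0.10 to 0.18 (1443381_at). The causes were not tested. Signal near or below the array median limits what the dim probe sets of Spry2, Spred2 and Etv4 can show. The same holds for the Spred1 probe sets below the filter. The tested Spred1 probe sets that turned read above the array medians on every array, with wildtype means of 48.8 to 103. Whether weak signal also limits what they can show was not tested.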
